A study of Mus musculus with 13 samples.

Results

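The measurements concern 10 genes of the melanocyte lineage and of pigment synthesis in newborn mouse skin, taken by name from the 49315 genes counted. They are the receptor *Kit*, the transcription factors *Sox10* and *Mitf*, the melanin enzymes *Tyr*, *Tyrp1* and *Dct*, the melanosome proteins *Pmel* and *Mlana*, and the transporters *Oca2* and *Slc45a2*. The study examined the loss of *Kctd1* and *Kctd15* in several cell types, and the mice used here lack them in keratinocytes. For loss of *Kctd15* in neural crest cells, the paper reports a white belly patch in which melanocytes were absent. Those mice are not part of the data used here. Whole skin of 3 WT and 3 littermate mice at P4 (postnatal day 4) was used for sequencing of total RNA, with 1 library per mouse. Mice labelled DKO carried *K14Cre+* together with *Kctd1 fl/fl* and *Kctd15 fl/fl*. Here Cre recombinase is driven by the keratin 14 promoter, which is active in basal keratinocytes and their descendants, and it removes the floxed parts of both genes. Whether the WT mice carried floxed alleles is not given in the sources used here.

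Melanocytes arise from the neural crest, a lineage separate from keratinocytes, and in hairy mouse skin they settle in the growing hair follicles. There they build melanosomes, the organelles in which tyrosinase and related enzymes make melanin, and pass them to the keratinocytes of the hair shaft. MITF, which acts downstream of SOX10 and of KIT signaling, switches on most genes of pigment synthesis.

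Gene counts summed to 14836798, 17643043 and 17470709 in the WT libraries, replicates 1 to 3 in order as in all lists of values. The DKO libraries summed to 11263863, 14950538 and 15050299 counts. Levels are given as CPM (counts scaled to a common library size, with TMM factors), and 3 counts, the floor used here, correspond to between 0.17 and 0.266 CPM of total counts (without TMM factors), for counting error only. The counts of the 10 genes ran from 121 for *Mlana* in DKO replicate 1 to 4947 for *Dct* in WT replicate 2. All 10 passed the filter on low counts, which was run over both genotypes together.

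The labels also carry a number, whose meaning they do not state. It is 47347 for WT replicates 1 and 2 and DKO replicates 2 and 3, and 40972 for WT replicate 3 and DKO replicate 1. DKO replicate 1 stood apart in its tissue markers: 21 hair follicle genes summed to 6060 CPM there and to between 11500 and 17100 CPM in the other 5 libraries. Its 22 skeletal muscle genes summed to 22200 CPM, against 6460 to 10500 CPM elsewhere. The skin label held in every library, with *Krt14*, a keratin of basal keratinocytes chosen after its values were seen, between 582 and 1180 CPM.

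The targeted genes were not lower in the DKO libraries. *Kctd1* was at 29.2, 27.0 and 29.1 CPM in WT and at 33.3, 64.9 and 48.4 CPM in DKO. *Kctd15* was at 48.5, 48.5 and 50.3 CPM in WT and at 74.5, 99.4 and 87.3 CPM in DKO. For both genes the DKO libraries lay above the WT libraries, with adjusted p = 0.342 for *Kctd1* and adjusted p = 0.107 for *Kctd15* in edgeR's quasi-likelihood test. DESeq2 called *Kctd15* (adjusted p = 0.000662), and edgeR called both genes without DKO replicate 1 (adjusted p = 0.0335 and 0.0173) and without the filter on low counts (adjusted p = 0.0306 and 0.00293). Counts were summed over all exons of a gene and over all cells of the skin, so they do not check the deletion. The paper reports that RNA-Seq showed efficient loss of the targeted exon of each gene. It names epidermal sheets of the single knockouts, and also mice that lack both genes in keratinocytes.

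Between the genotypes, the values of every pigment and lineage gene overlapped. The log2 fold change of DKO over WT was above 0 for 5 of the 10 genes and below 0 for the other 5 (3 above and 7 below with total counts in place of TMM), and the median was -0.04, beside 0.02 over all 20168 genes tested. With edgeR's quasi-likelihood test and Benjamini-Hochberg adjustment over all genes tested, 0 of the 10 genes had an adjusted p under 0.05, against a background of 0.0694% (14 genes). At an unadjusted p under 0.05 the count was 0 of the 10 genes, beside 7.5% of all genes tested (1512 genes). DESeq2 called 0 of the 10, beside 0.999% of all genes with an adjusted p (206 of 20617). In 0 of the 10 genes did the 3 libraries of one genotype all lie above the 3 of the other, a separation found in 13.2% of the genes tested. In bulk skin, fewer melanocytes and less RNA per melanocyte cannot be told apart.

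**Figure D1:**
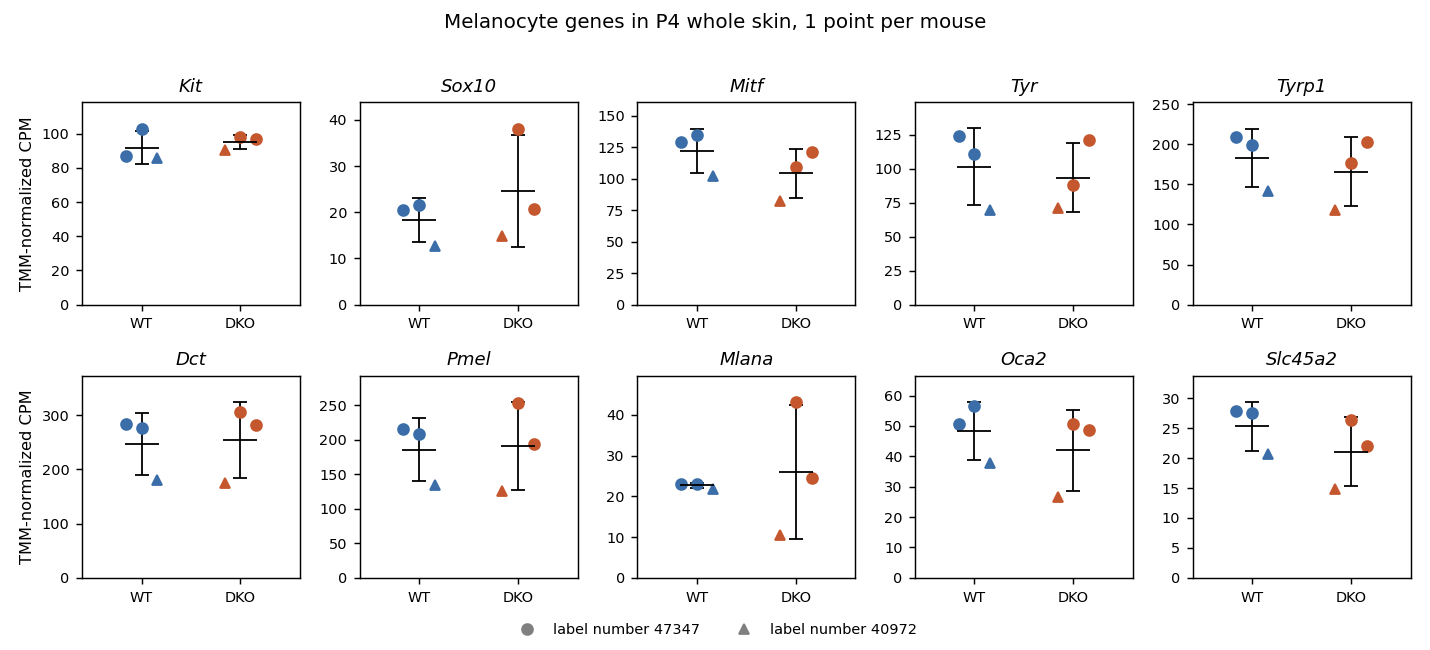
TMM-normalized CPM (y axis, from 0) of the 10 melanocyte genes in P4 whole skin of WT (blue) and DKO (orange) mice, 1 point per mouse; the horizontal line is the group mean, the bar is ± SD (n = 3), and the marker shape gives the number in the label. WT and DKO overlap for each gene, and the triangles of number 40972 are the 2 lowest points in 9 of the 10 genes, *Kit* being the exception.

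*Kit* encodes the receptor tyrosine kinase for stem cell factor, on which melanoblasts depend for survival and migration. Its level was 87.1, 103 and 85.7 CPM in WT and 90.3, 98.1 and 97.1 CPM in DKO. The 6 libraries were close to each other, and the DKO values lay within the WT range. The means were 91.8 ± 9.37 CPM in WT and 95.2 ± 4.24 CPM in DKO (SD, n = 3). The log2 fold change was 0.05 ± 0.13 (SE), with edgeR adjusted p = 0.968. Its 95% confidence interval reached from 0.853-fold to 1.26-fold, the narrowest of the 10 genes.

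*Sox10* encodes the transcription factor that specifies melanoblasts and is kept on in melanocytes and in Schwann cells. The WT mice had 20.5, 21.6 and 12.8 CPM, and the DKO mice had 14.9, 38.1 and 20.7 CPM. DKO replicate 2 was the highest library, and the other DKO libraries lay inside the WT range. The log2 fold change was 0.43 ± 0.33 (SE), with edgeR adjusted p = 0.898, and it was -0.03 without DKO replicate 2. The interval, from 0.808-fold to 2.23-fold, includes a doubling.

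*Mitf* encodes the central transcription factor of the lineage. It was at 129, 135 and 102 CPM in WT and at 82.4, 109 and 121 CPM in DKO. The lowest value came from DKO replicate 1 and the next from WT replicate 3. Means of 122 ± 17.6 CPM in WT and 104 ± 19.8 CPM in DKO (SD, n = 3) gave a log2 fold change of -0.22 ± 0.17 (SE), with edgeR adjusted p = 0.898. The interval ran from 0.656-fold to 1.12-fold.

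*Tyr* encodes tyrosinase, the rate-limiting enzyme of melanin synthesis, which is made almost only by pigment cells. Its level was 124, 111 and 69.6 CPM in WT and 71.3, 88.1 and 121 CPM in DKO. WT replicate 3 and DKO replicate 1 were the lowest of the 6 libraries, and WT replicate 1 and DKO replicate 3 the highest. The log2 fold change was -0.12 ± 0.24 (SE), with edgeR adjusted p = 0.966 and an interval from 0.634-fold to 1.34-fold.

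*Tyrp1* encodes a tyrosinase-related enzyme of the brown-to-black melanin pathway. The WT mice had 209, 199 and 142 CPM and the DKO mice had 118, 177 and 203 CPM. The same libraries were lowest as for *Tyr*. For *Tyrp1* the log2 fold change was -0.14 ± 0.21 (SE), with edgeR adjusted p = 0.953 and an interval from 0.649-fold to 1.26-fold.

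*Dct* encodes dopachrome tautomerase, which is already expressed in melanoblasts before pigment appears. It was at 283, 277 and 181 CPM in WT and at 174, 306 and 282 CPM in DKO. The values fell into a high level shared by 4 libraries and a low level shared by WT replicate 3 and DKO replicate 1. The genotype means of 247 ± 57.0 and 254 ± 70.2 CPM (SD, n = 3) differed by far less than their spread. The log2 fold change was 0.04 ± 0.23 (SE), with edgeR adjusted p = 0.983 and an interval from 0.717-fold to 1.47-fold.

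*Pmel* encodes the protein of the amyloid fibrils on which melanin is laid down. Its level was 216, 208 and 134 CPM in WT and 126, 254 and 194 CPM in DKO. The order of the libraries resembled that of *Dct*, with DKO replicate 2 highest. For *Pmel* the log2 fold change was 0.04 ± 0.26 (SE), with edgeR adjusted p = 0.986, and its sign turned with total counts in place of TMM (-0.01).

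*Mlana* encodes MART-1, a small membrane protein of early melanosomes. The WT libraries were close together, at 23.1, 23.1 and 21.9 CPM, while the DKO libraries had 10.5, 43.2 and 24.5 CPM. The coefficient of variation was 2.98% in WT and 63.1% in DKO, the lowest and the highest of the 10 genes in the respective genotype. Its log2 fold change was 0.20 ± 0.38 (SE), with edgeR adjusted p = 0.96, and it was -0.36 without DKO replicate 2. The spread was wider in DKO than in WT for 8 of the 10 genes, *Kit* and *Tyr* being the exceptions. A wider spread in DKO was not particular to these genes. Over all genes with at least 10 counts in a pair of libraries, chi-square per degree of freedom was 8.09 to 11.6 between WT libraries. Between DKO libraries it was 23.1 to 51.2. Whether the spread differs between the genotypes was not tested.

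*Oca2* encodes a chloride channel of the melanosome membrane, mutated in the pink-eyed dilution mouse. It was at 50.6, 56.5 and 37.9 CPM in WT and at 26.7, 50.5 and 48.7 CPM in DKO. DKO replicate 1 was again the lowest library. For *Oca2* the log2 fold change was -0.20 ± 0.24 (SE), with edgeR adjusted p = 0.94 and an interval from 0.594-fold to 1.27-fold.

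*Slc45a2* encodes a transporter that helps keep melanosomes at a pH at which tyrosinase works. The WT mice had 27.9, 27.5 and 20.6 CPM and the DKO mice had 14.9, 26.3 and 22.0 CPM. All DKO values were below those of WT replicates 1 and 2, but WT replicate 3 lay inside the DKO range. Its log2 fold change was -0.26 ± 0.22 (SE), with edgeR adjusted p = 0.907 and an interval from 0.593-fold to 1.17-fold.

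Libraries of the same genotype differed from each other in these genes. For 9 of them, all but *Kit*, the 4 libraries of number 47347 lay above both libraries of number 40972, a pattern found in 9.33% of all genes tested; with total counts the number was 8. With genotype in the model, the median log2 difference of number 47347 over 40972 was 0.67 for the 10 genes, beside 0.00 over all genes tested. Over 21 hair follicle genes it was 0.72, with all 4 libraries of number 47347 above both of number 40972 for 3 of the 21. The difference was 0.69 for *Dct*, whose means were 287 CPM in the libraries of number 47347 and 178 CPM in those of 40972. It was 0.13 for *Kit*, with means of 96.2 and 88.0 CPM. This pattern was noticed in the values, and no p-value is given for it.

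Within each number the genotypes could be compared again. Between the 2 libraries of number 40972, DKO replicate 1 was below WT replicate 3 for 7 of the 10 genes, with a log2 difference of -1.07 for *Mlana*, -0.51 for *Oca2* and 0.03 for *Tyr*. This is 1 mouse against 1, with no replicate check. Within number 47347, DKO was above WT for 5 of the 10 genes, with log2 differences of means from -0.20 for *Mitf* and *Slc45a2* to 0.55 for *Mlana*. Genotype differences within the numbers did not share a direction for *Tyr*, *Dct*, *Pmel* and *Mlana*.

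**Figure D2:**
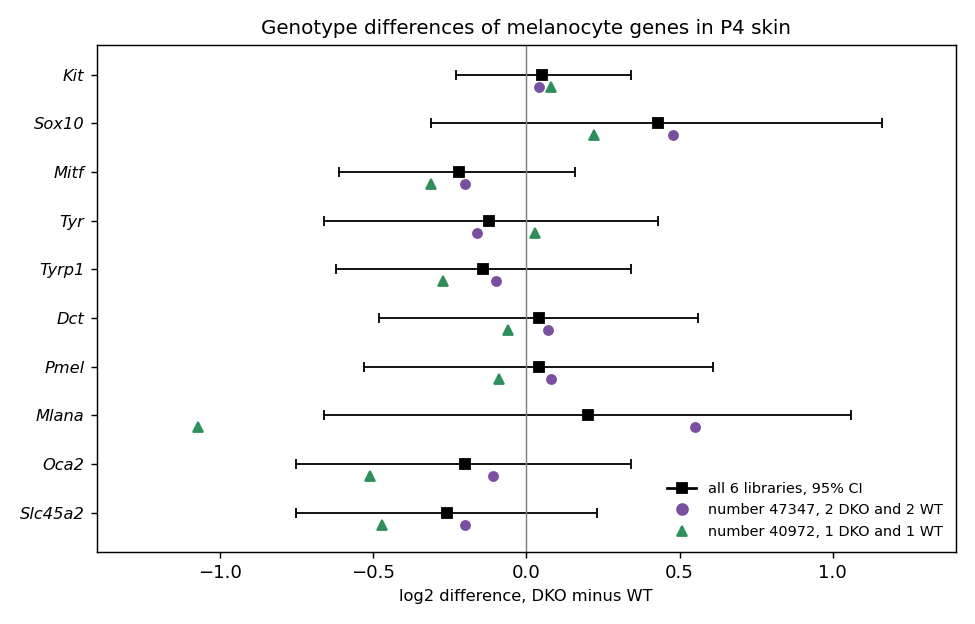
Log2 difference of DKO minus WT (x axis) for each melanocyte gene: black squares give edgeR's estimate from all 6 libraries with its 95% confidence interval, purple circles the log2 ratio of the means of 2 DKO and 2 WT libraries of number 47347, and green triangles the log2 ratio of the 1 DKO and 1 WT library of number 40972. Each interval from all 6 libraries spans 0, and the triangle of *Mlana*, at -1.07, lies farthest from 0.

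Summed over the 10 genes, the level was 1170, 1160 and 808 CPM in WT and 729, 1190 and 1130 CPM in DKO. Per kilobase of counted length, the order over the 6 libraries began with *Dct* (109 ± 25.2 CPM per kb in WT and 112 ± 31.0 in DKO; SD, n = 3) and *Pmel* (87.5 ± 21.2 and 89.7 ± 30.0). *Tyrp1* (64.8 ± 12.9 and 58.7 ± 15.4) and *Mlana* (36.4 ± 1.09 and 41.8 ± 26.4) followed. A lower tier held *Mitf* (19.7 ± 2.83 and 16.8 ± 3.20), *Tyr* (14.3 ± 3.99 and 13.2 ± 3.59), *Oca2* (12.2 ± 2.40 and 10.6 ± 3.35) and *Kit* (10.3 ± 1.05 and 10.7 ± 0.475). *Sox10* (6.75 ± 1.77 and 9.05 ± 4.45) and *Slc45a2* (8.49 ± 1.36 and 7.06 ± 1.93) were lowest. Neighbours in this order overlapped within 1 SD in both genotypes, except in WT for *Tyrp1* and *Mlana*, for *Mlana* and *Mitf*, and for *Kit* and *Sox10*.

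The 10 genes lie on 8 chromosomes in GRCm38. *Tyr* (chr7:87424771-87493512) and *Oca2* (chr7:56239760-56536518) share chromosome 7, and *Sox10* (chr15:79154913-79164490) and *Slc45a2* (chr15:11000721-11029233) share chromosome 15. The others are *Kit* (chr5:75574916-75656722), *Mitf* (chr6:97807052-98021349), *Tyrp1* (chr4:80834123-80851719), *Dct* (chr14:118012792-118052246), *Pmel* (chr10:128706258-128720238) and *Mlana* (chr19:29697921-29708448). Counted lengths ran from 623 bases for *Mlana* to 8911 bases for *Kit*. In the GENCODE annotation, exons of 9 of the 10 genes overlap no exon of another gene. *Pmel* shares 105 bases, 4.93% of its counted length, with *Dgka* on the other strand, and whether the counting used the strand is not given in the sources used here.

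Promoter sequences from RefSeq (GRCm38.p6) were matched for 6 of the 10 genes, *Kit*, *Mitf*, *Tyr*, *Tyrp1*, *Dct* and *Oca2*, in 9 windows. The 250 bases before each start were searched on both strands for TCATGTG, the core of the M-box to which MITF is known to bind. MITF was already known to act on pigment genes, so a match in their promoters is no test of these libraries. *Tyr*, *Tyrp1* and *Dct* held it, and 3.25% of all 32851 windows did. The match began 22 bases before the start in *Tyr* (motif at chr7:87493528-87493534, minus strand), 47 before it in *Tyrp1* (chr4:80834166-80834172, plus strand) and 151 before it in *Dct* (chr14:118052391-118052397, minus strand). *Dct* held another copy on the opposite strand, 232 bases before the start. In the GENCODE annotation the *Tyrp1* match lies in the first exon of a longer *Tyrp1* transcript, and those of *Tyr* and *Dct* lie outside exons. The 3 stretches are shown with 10 bases on each side and the match in capitals.
*Tyr*: aaaaagttagTCATGTGctttgcagaa
*Tyrp1*: ggggagggagTCATGTGctgcctagta
*Dct*: gcacttagggTCATGTGctaacaaaga

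In each of the 3 stretches the match was followed by ct, and the 9 letters TCATGTGCT, searched after the stretches had been seen, were in 0.335% of all windows. The shorter CATGTG, contained in TCATGTG, was also in the window of *Oca2*, 186 bases before the start on the opposite strand, and in 12.3% of all windows. *Mitf* had 3 windows. The most downstream of them, which begins the melanocyte form of the transcript, held TGACGTCA, the palindrome recognized by factors of the CREB family, 153 bases before its start (chr6:97991630-97991637, plus strand), as did 1.55% of all windows.
*Mitf*: aaaaaaagcaTGACGTCAagccagcagg
These matches describe the sequence and were not tested for a function in these samples.

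Of 33 genes that build, fill and move melanosomes, 16 were higher and 17 lower in DKO, 0 had an adjusted p under 0.05 with edgeR or DESeq2, and 2 had an unadjusted p under 0.05 (7.5% of all genes). *Slc7a11*, the cystine transporter needed for yellow pheomelanin, had 29.3, 31.2 and 40.9 CPM in WT and 19.1, 22.1 and 28.1 CPM in DKO. All DKO libraries were below all WT libraries, with a log2 fold change of -0.55 ± 0.19 (SE) and edgeR adjusted p = 0.488. Without both libraries of number 40972, a choice made after seeing the data, the log2 fold change of *Slc7a11* was -0.285. The ion channel gene *Tpcn2* and *Lyst*, a regulator of lysosome-related organelles, had log2 fold changes of 0.33 and -0.26 (edgeR adjusted p = 0.655 and 0.741). *Cd63* was the most abundant gene of the list per length, at 76.6 ± 5.03 CPM per kb in WT and 82.6 ± 7.86 in DKO (SD, n = 3).

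In 12 of the 33 genes the 4 libraries of number 47347 lay above both of number 40972 (9.33% of all genes). Of these, *Gpnmb* and *Trpm1* are given, chosen after their values were seen. *Gpnmb*, a melanosome glycoprotein also made by macrophages, was at 311, 322 and 182 CPM in WT and at 149, 375 and 308 CPM in DKO. *Trpm1*, a channel gene and known MITF target, had 159, 156 and 94.6 CPM in WT and 73.0, 172 and 148 CPM in DKO. In both genes, as in *Tyrp1* and *Dct*, WT replicate 3 and DKO replicate 1 were lowest.

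Of 16 tested genes for ligands, receptors and modulators that act on melanocytes, 7 were higher and 9 lower in DKO. With edgeR 0 had an adjusted p under 0.05 and 2 had an unadjusted p under 0.05 (7.5% of all genes), both higher in DKO; DESeq2 called 1 (0.999% of all genes), *Fgfr1*. This receptor gene, used by many skin cells, was at 136, 146 and 149 CPM in WT and at 235, 249 and 186 CPM in DKO, so that the genotypes did not overlap. Its log2 fold change was 0.64 ± 0.14 (SE), with edgeR adjusted p = 0.205 DESeq2 adjusted p = 0.0188 and, without the filter on low counts, edgeR adjusted p = 0.0267. *Fgf2*, a growth factor for melanocytes in culture, had a log2 fold change of 0.64 (edgeR adjusted p = 0.385). *Ednrb*, the endothelin receptor of melanoblasts and the most abundant gene of the list per length (54.6 ± 1.44 CPM per kb in WT and 46.6 ± 4.77 in DKO; SD, n = 3), had a log2 fold change of -0.23 (edgeR adjusted p = 0.775). Without DKO replicate 2 the log2 fold change of *Ednrb* was -0.151.

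*Kitl*, which encodes the ligand of the receptor made from *Kit* and was chosen after its values were seen, had 118, 118 and 112 CPM in WT and 112, 95.2 and 124 CPM in DKO. The genotypes overlapped for the ligand as they did for *Kit*.

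Of 13 other regulators of the lineage, 8 were higher and 5 lower in DKO, 0 had an adjusted p under 0.05 with edgeR or DESeq2, and 1 had an unadjusted p under 0.05 (7.5% of all genes). This was *Irf4*, which cooperates with MITF at *Tyr* and is also used by lymphocytes and myeloid cells. It was at 12.6, 12.6 and 7.95 CPM in WT and at 15.1, 16.6 and 49.7 CPM in DKO. DKO replicate 3 stood far above the other libraries, and the log2 fold change of 1.30 ± 0.43 (SE; edgeR adjusted p = 0.454) was 0.52 without it. Without the filter on low counts edgeR called *Irf4* (adjusted p = 0.00476). *Tfap2a*, which encodes AP-2α, was the most abundant regulator per length, at 87.6 ± 7.13 CPM per kb in WT and 90.9 ± 29.3 in DKO (SD, n = 3).

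The pattern of the pigment genes over the 6 libraries was compared with that of 13271 other genes with a mean of at least 5 CPM. The mean centred log2 CPM of the 7 pigment genes (*Tyr* to *Slc45a2*) was 0.24, 0.21 and -0.28 in WT and -0.63, 0.30 and 0.16 in DKO. The 10 genes with the smallest root mean square distance to it were *Grb7*, *Cstb*, *Anxa9*, *Fmn1*, *Prss8*, *Mreg*, *March3*, *Accs*, *Proser2* and *Gadd45b*. Their distances lay between 0.044 and 0.09 log2 units, below the median of 0.376 over all candidates because the smallest were chosen. The distances of the 7 pigment genes to their own mean were not computed, and these genes did not all follow it. In DKO replicate 2, *Mlana* was at its highest (43.2 CPM), while *Tyr* (88.1 CPM) was below DKO replicate 3 (121 CPM). *Mreg* is a regulator of melanosome transport and belongs to the melanosome list, while *Prss8* is a protease of the epidermis.

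Of 21 hair follicle genes tested, 19 were lower in DKO, with a median log2 fold change of -0.33. The median was -0.02 without DKO replicate 1, -0.78 without DKO replicate 2 and 0.02 without both libraries of number 40972, a choice made after seeing the data. With edgeR 3 genes had an unadjusted p under 0.05 (7.5% of all genes), *Krt71*, *Krt73* and *Krt28*, keratins of the inner root sheath. *Krt71* was at 3970, 3820 and 3540 CPM in WT and at 1440, 3050 and 2350 CPM in DKO, with a log2 fold change of -0.73 (edgeR adjusted p = 0.458, and 0.00749 without the filter on low counts). For *Krt73* and *Krt28* it was -0.50 and -0.53 (edgeR adjusted p = 0.572 and 0.631), and -0.32 and -0.31 without DKO replicate 1. The summed follicle level was 16900, 17100 and 15100 CPM in WT and 6060, 16000 and 11500 CPM in DKO. DKO replicate 1 was lowest in this sum and in the sum of the 10 melanocyte genes, at 0.371 and 0.697 of the WT means. WT replicate 3 was at 0.924 of the WT mean in the follicle sum and at 0.772 in that of the 10 melanocyte genes, and DKO replicate 3 was at 0.705 and 1.08. How the follicle content bears on the melanocyte genes was not tested.

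**Figure D3:**
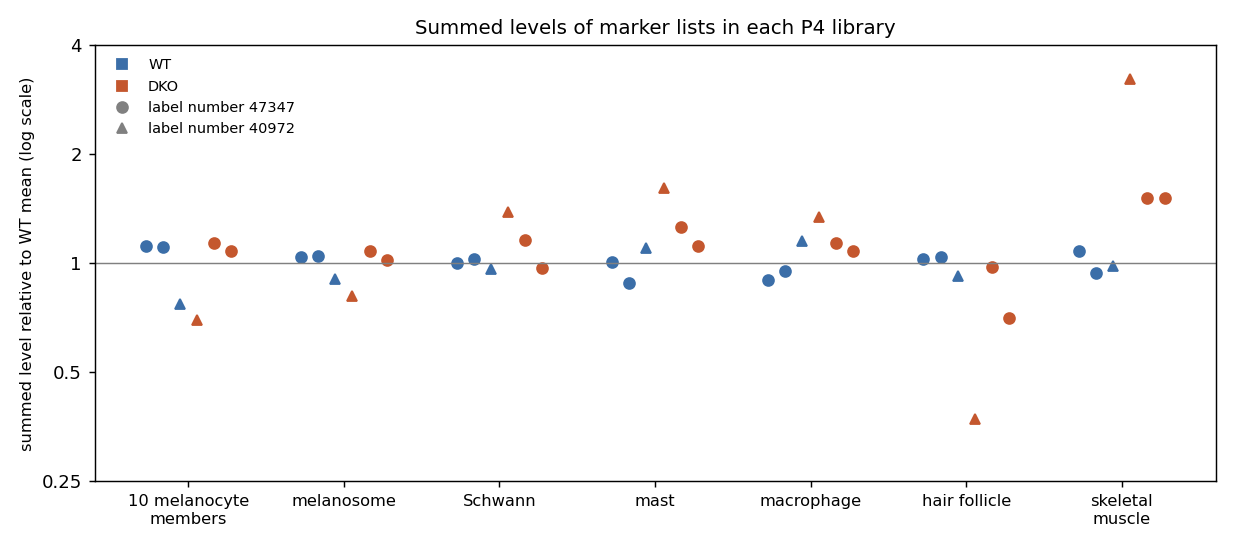
Summed TMM-normalized CPM of 7 gene lists in each P4 library, divided by the mean of the 3 WT libraries (y axis, log scale), 1 point per mouse with WT in blue, DKO in orange, circles for number 47347 and triangles for number 40972. The 10 melanocyte genes are at 0.772 and 0.697 of the WT mean in the libraries of number 40972 and between 1.08 and 1.14 in the other 4, while DKO replicate 1 is at 0.371 in follicle genes and 3.23 in skeletal muscle genes.

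Skeletal muscle genes were higher in DKO for 21 of 22, of which 17 had an unadjusted p under 0.05 (7.5% of all genes) and 0 an adjusted p under 0.05 with edgeR, while DESeq2 called 12 (0.999% of all genes). Their median log2 fold change was 1.04, and it was 0.56 without DKO replicate 1 and 0.52 without both libraries of number 40972. Log2 fold changes were 1.23 for the troponin gene *Tnni2*, 1.14 for the skeletal actin gene *Acta1* and 1.07 for *Tnnt3* (edgeR adjusted p = 0.146, 0.168 and 0.204). Without the filter on low counts edgeR called all 3 (adjusted p = 0.000122, 3.55e-05 and 0.000293), and without DKO replicate 1 it called *Acta1* (adjusted p = 0.041). With the muscle list taken out of the library sizes, the median log2 fold change of the 10 melanocyte genes was -0.06, beside -0.04 with it.

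Schwann cell genes, which share *Sox10*, summed to 375, 386 and 362 CPM in WT and to 520, 435 and 363 CPM in DKO. Of 19 tested, 15 were higher in DKO. The sum was highest in DKO replicate 1, where *Sox10* was at 14.9 CPM, and next highest in DKO replicate 2, where *Sox10* was at 38.1 CPM. The relation of *Sox10* to Schwann cell content was not tested.

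Mast cell genes, which share *Kit* and *Mitf*, summed to 192, 167 and 209 CPM in WT and to 304, 238 and 212 CPM in DKO. Of 12 tested, 10 were higher in DKO, 5 of them at an unadjusted p under 0.05 (7.5% of all genes) and 0 with an adjusted p under 0.05 by edgeR or DESeq2. The histidine decarboxylase gene *Hdc*, the regulator *Gata2* and the protease gene *Mcpt4* had log2 fold changes of 0.78, 0.73 and 0.52 (edgeR adjusted p = 0.334, 0.342 and 0.422). *Mcpt4* was at 36.3, 28.9 and 35.0 CPM in WT and at 53.5, 51.2 and 39.4 CPM in DKO. The mast cell sum was highest in DKO replicate 1, where *Kit* was at 90.3 CPM and *Mitf* at 82.4 CPM. The relation of *Kit* and *Mitf* to mast cell content was not tested.

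Macrophage genes were higher in DKO for 9 of 11, 2 at an unadjusted p under 0.05 (7.5% of all genes) and 0 at an adjusted p under 0.05 with edgeR or DESeq2. Their sum was 222, 234 and 282 CPM in WT and 329, 281 and 266 CPM in DKO.

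Of 14 general skin genes, 11 were higher in DKO. With edgeR 4 had an unadjusted p under 0.05 (7.5% of all genes), 2 higher and 2 lower in DKO, and 0 an adjusted p under 0.05. DESeq2 called 2 (0.999% of all genes), *Krt1* higher and *Krt77* lower in DKO, and edgeR called both without the filter on low counts (adjusted p = 0.00111 and 0.00595). They summed to 21900, 24100 and 25500 CPM in WT and to 29000, 36700 and 25600 CPM in DKO.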

How the data were processed

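The authors sequenced paired-end reads from rRNA-depleted total RNA (NEBNext Ultra II). Their processing notes name Trimmomatic 0.36, STAR 2.5.2b, featureCounts of Subread 1.5.2 and GRCm38. The deposited values are counts per gene, without normalization. Symbols matched 48970 of 49315 identifiers (99.3%). The 7 epidermis libraries held only counts of 0 in the files used here and were not analysed.

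Counts were tested in R 4.3.3 with edgeR 4.0.16 (filterByExpr, TMM, quasi-likelihood F test, Benjamini-Hochberg adjustment over 20168 genes). SE was computed as the log2 fold change over the root of F. DESeq2 1.42.0 was an alternative. Both were tested on simulated counts. P-values weigh the genotype difference against the variation between mice, 3 per genotype, with dispersions moderated over the genes tested. The label number was not in the main model.

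Members and gene lists were chosen with earlier results of these data known. Genes could be named if they were members, *Kctd1* or *Kctd15*, among the 3 smallest p-values, most abundant per kilobase or called in a list, or among the 10 nearest patterns (log2 CPM with a prior count of 2). Krt85 was not matched, and Mcpt6 is another name of *Tpsb2*. Comparisons between label numbers, other than the replicate block, were made after seeing the data.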

Additional observations from a re-analysis of the deposited data

How the results depend on the processing

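Of 140 values of the 10 melanocyte genes under 14 other fits, 126 kept their direction and 14 turned it. Adjusted p ranged from 0.42 to 1, so 0 of the 10 genes passed in any of these fits. Without DKO replicate 1, 2 of the 10 had an unadjusted p under 0.05 with edgeR, as did 1529 of the 20679 genes tested in that fit. With total counts, *Dct* turned to -0.005 and *Pmel* to -0.014. The largest value that turned was *Mlana* at -0.36 without DKO replicate 2, where *Pmel* was -0.215; without WT replicate 3, *Pmel* was -0.166 and *Dct* -0.153. With each replicate left out in turn, log2 fold changes ranged from -0.006 to 0.132 for *Kit*, -0.032 to 0.661 for *Sox10*, -0.350 to -0.095 for *Mitf*, -0.347 to 0.047 for *Tyr*, -0.312 to 0.039 for *Tyrp1*, -0.153 to 0.235 for *Dct*, -0.215 to 0.247 for *Pmel*, -0.360 to 0.556 for *Mlana*, -0.365 to 0.021 for *Oca2* and -0.446 to -0.085 for *Slc45a2*. The median of the 10 genes ranged from -0.24 to 0.06, with the sign turned without WT replicate 1, WT replicate 2 or DKO replicate 1. The summed level differed by -0.05 between genotypes, by -0.09 with total counts and by -0.03 per kilobase (log2). Of the 10 nearest genes, 9 were shared with a prior count of 0.5.

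The number of called genes moved more, from 14 (8 higher, 6 lower) to 206 with DESeq2, 22 with total counts (10 higher, 12 lower), 303 without a filter, 16 with RLE size factors, 12 with at least 10 counts in every library and 21 without the muscle list (9 higher, 12 lower). With each replicate left out it ranged from 2 to 48. With the label number as a replicate block it was 38 (16 higher, 22 lower), 0 of the 10 genes were called, and of the other listed genes only *Acta1* was (edgeR adjusted p = 0.0396). The labels do not say what the number marks, and the libraries share only a number here. Deviations from the group means correlated at 0.23 for WT replicate 3 and DKO replicate 1, at 0.173 and -0.019 for WT replicate 1 with DKO replicates 3 and 2, and at 0.144 and -0.008 for WT replicate 2 with DKO replicates 2 and 3. Pairs of different numbers were at -0.104 to -0.152. Each of these holds WT replicate 3 or DKO replicate 1, and deviations sum to 0 within a genotype, so these values depend on each other and no pairing is read from them. Leaving out both libraries of number 40972, an alternative chosen after seeing the data, gave 9 called genes and 0 of the 10. The causes were not tested. For the 29 other named genes, 380 of 401 values kept their direction and their side of the threshold, 21 passed it and 0 turned.

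Depth was no limit for the 10 genes, whose lowest count was 121; with 3 mice per genotype, intervals reach from 0.593-fold to 2.23-fold.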
